A study of Zea mays with 4 samples.

Results

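The miR396 microRNAs of maize (Zea mays) leaves were profiled in 4 small RNA libraries. They were chosen by name, as every entry whose name holds miR396 or MIR396 with no further digit. This gave 10 rows with 6 distinct sequences, out of 319 distinct sequences in 500 rows. T1 came from leaves at the 4-leaf stage after 1 day of feeding by larvae of Spodoptera frugiperda, the fall armyworm, and T3 from such leaves after 3 days of feeding. CK1 and CK3 were leaves of the same stage whose labels name no feeding and no sampling day. The labels give neither the maize line, the number of plants behind a library, nor whether a column of values pools several libraries. Each group has 1 column, called a library here, so a difference between a pair of them has no replicate check.

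MiR396 is a microRNA family conserved among seed plants. It is known to pair with mRNAs of growth-regulating factors (GRFs), transcription factors that act with GIF coactivators to keep cells of young leaves dividing, and it is known to accumulate as leaf cells leave the division zone. The precursor folds into a hairpin; the strand cut from its 5p arm is the one that pairs with GRF mRNAs, and the 3p strand is its partner in the duplex. In rice, miR396 is known to lower resistance to the brown planthopper, a sap-feeding insect. RefSeq's annotation of the maize assembly Zm-B73-REFERENCE-NAM-5.0 names 8 MIR396 genes, a to h, among which MIR396a neighbours MIR396e, MIR396b neighbours MIR396h and MIR396f neighbours MIR396g, and it gives a GRF name to 16 genes. GRF mRNAs were not measured.

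The 6 sequences are shown because the results turn on how they differ at single bases. They are written 5′ to 3′ in DNA letters as deposited, with bases 2 to 8, the seed, in capitals.
zma-miR396c_L-1: tCCACAGGctttcttgaactg
zma-miR396a-5p: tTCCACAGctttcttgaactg
zma-miR396e-5p: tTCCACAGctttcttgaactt
aly-miR396b-5p_R+1: tTCCACAGctttcttgaacttt
zma-miR396a-3p: gTTCAATAaagctgtgggaaa
zma-miR396f-3p: gGTCAAGAaagctgtgggaag

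Of the 6 names, 5 are maize names, and the sixth is a name from Arabidopsis lyrata. The first 4 sequences are 5p strands. The name zma-miR396c_L-1 states no arm and was placed by its sequence, which lies 2 single-base edits from zma-miR396a-5p and 13 from zma-miR396a-3p. All 4 share the run GCTTTCTTGAACT of 13 bases, which none of the 313 other sequences held, and the nearest sequence outside the family was 8 edits away. The seed TCCACAG was common to zma-miR396a-5p, zma-miR396e-5p and aly-miR396b-5p_R+1. The seed of zma-miR396c_L-1 was CCACAGG, because that entry starts a base later and carries an extra base after the first ones. The base that zma-miR396a-5p lacks, either of the 2 adjacent g, is in capitals here.
zma-miR396c_L-1: tccacaGgctttcttgaactg
Grasses are known to have such a form of miR396 beside those shared with other plants. The entries zma-miR396a-5p and zma-miR396e-5p differed by the substitution G21T (base of zma-miR396a-5p first, counted from the 5′ end). The entry aly-miR396b-5p_R+1 was zma-miR396e-5p with a further base at the 3′ end. The 3p strands differed from each other by T2G, T7G and A21G (base of zma-miR396a-3p first). The longest perfectly complementary run with zma-miR396a-5p was 15 bases for zma-miR396f-3p and 10 for zma-miR396a-3p.

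The deposited values are normalized reads per sequence, scaled by the authors. Most values of a library (88.6% to 93.8% of those above 0, within 0.02 of a read) were whole multiples of a single step, which was taken as the value of 1 read. That step was 0.303 units in T1, 0.352 in T3, 0.736 in CK1 and 0.826 in CK3, so the fed libraries held more reads. The listed sequences stood for 209054 reads in T1, 180674 in T3, 87014 in CK1 and 90834 in CK3. Values under 5 reads were nearly missing from the table, so an entry listed at 0 may have been present below that level. By the 2-fold rule given below, 48.1% of sequences were called for T3 against CK3, 42.1% for T1 against CK3 and 51.3% for CK3 against CK1. Pairs without CK3 had 26.1% (T1 against CK1), 27.7% (T3 against CK1) and 17.6% (T3 against T1). The 58 entries with candidate names for ribosomal or transfer RNA fragments, many of them chosen because they stood high in CK3, summed to 887 normalized reads in T1, 1667 in T3, 1021 in CK1 and 4418 in CK3. Because of that choice, a high sum in CK3 is no evidence that CK3 differed. The part of these entries in the differences from CK3 given below was not tested. None of 17 insect microRNA names searched for was in the table. The entries carry plant microRNA names or names of predicted ones, so this search could not show whether larval RNA was present. Reads that map to several entries can be shared between them, and the libraries carry no stated molecular identifiers. Intervals below are 95% exact intervals on the implied reads; they cover counting error only and take each read as a separate molecule.

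Summed over its 6 sequences, the miR396 family differed by at most 1.26-fold between any pair of libraries. It stood at 759 normalized reads in T1 and 673 in T3, against 685 in CK1 and 600 in CK3. These were 2507, 1913, 931 and 727 implied reads in the same order. The highest and the lowest library were T1 and CK3, and the fed and unfed ranges overlapped, since T3 lay below CK1. In whole leaves, fewer cells that hold a microRNA and less of it per cell cannot be told apart. Ordered by level the libraries ran T1, CK1, T3 and CK3, and T3 and CK1 did not differ beyond counting error. The log2 ratio, here always of values plus 1, was 0.15 for T1 over CK1 and 0.17 for T3 over CK3. The counting intervals of the ratio, taken without the added 1, ran from 0.039 to 0.26 and from 0.042 to 0.29. With the unfed libraries exchanged, the ratio was 0.34 for T1 over CK3 and -0.025 for T3 over CK1. CK3 over CK1, with no feeding on either side, had a log2 ratio of -0.19, farther from 0 than both ratios of a fed library over the unfed one of the same number. T3 over T1 was at -0.17.

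None of these totals differed by 2-fold, the size used to call a difference between single libraries when the higher one held at least 10 normalized reads. Among all families that rule called 19.6% for T1 against CK1, 44.7% for T3 against CK3 and 39.5% for CK3 against CK1. Among 41 families with a mean of at least 10 normalized reads, miR396 had the second smallest range over the 4 libraries, 0.34 log2 units, where the median family spanned 0.99. That rank held for the values as deposited: with equal library totals miR396 spanned 0.58 and 8 families spanned less, and with median-of-ratios scaling it spanned 0.42 and again 8 spanned less. As deposited, of families close to it in level, miR390 spanned 0.72, miR827 0.75 and miR160 1.38, while miR159 spanned 0.51 and miR169 0.42. With 4 libraries this is a description of those libraries. MiR396 ranked 11th of 65 families by total in T1, 13th in T3, 13th in CK1 and 14th in CK3, and held 1.20%, 1.06%, 1.07% and 0.800% of all listed reads. These shares also depend on the other families. All listed sequences summed to 63292 normalized reads in T1, 63609 in T3, 64034 in CK1 and 75008 in CK3. The family miR9774 alone had 38370 in T1, 36787 in T3, 38649 in CK1 and 49141 in CK3.

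Fed against unfed leaves were also compared over all 4 libraries (2 against 2) with limma, fitted across all families or all sequences. The family total averaged 9.48 on the log2 scale in fed and 9.33 in unfed libraries, a difference of 0.16 ± 0.24 (SE) with a limma interval from -0.54 to 0.86 and an adjusted p of 0.88 over 44 families. The fit called 2.27% of families (1 of 44, miR5072, one of the fragment names, listed at 0 in both unfed libraries), and 9.09% had an unadjusted p under 0.05. It called no family with the replicate block, with equal totals, with median-of-ratios scaling or with no minimum. Leaving out a library leaves 1 on a side, with no spread of its own, so only the difference is given for such fits. For miR396 it ran from 0.061 (without CK3) to 0.25 (without CK1). The spread in this test holds the difference between 1 and 3 days of feeding and that between CK1 and CK3, and separate plants are not stated for the libraries. The p-values therefore measure the spread between these libraries, which may be technical.

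**Figure D1:**
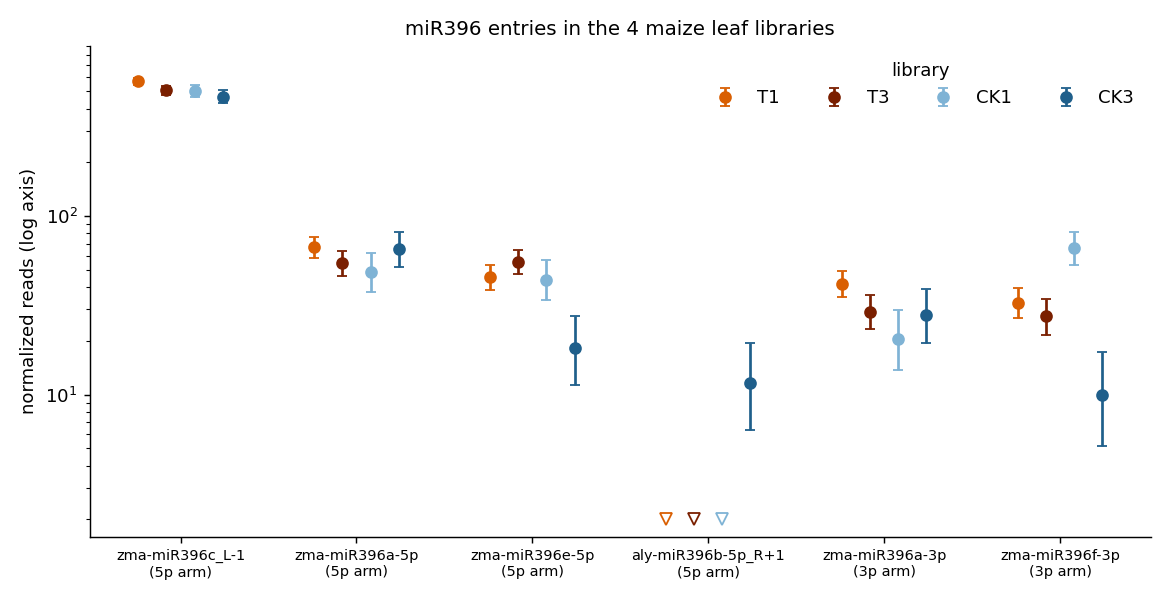
Normalized reads (log axis) of each miR396 entry in T1, T3, CK1 and CK3; points are single libraries, bars are 95% exact Poisson intervals on implied reads, and open triangles mark entries listed at 0. The entry zma-miR396c_L-1 lies between 467 and 572 in all libraries, while zma-miR396e-5p and zma-miR396f-3p are lowest in CK3 and aly-miR396b-5p_R+1 is listed in CK3 alone.

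The grass form zma-miR396c_L-1 made up most of the family in every library and set its level. It had 572 normalized reads in T1 and 507 in T3, against 506 in CK1 and 467 in CK3. T3 and CK1 were equal to within counting error, T1 was highest and CK3 lowest. Its log2 ratio was 0.18 for T1 over CK1 (interval 0.050 to 0.31) and 0.12 for T3 over CK3 (-0.025 to 0.26). Its share of the 5p strands was 83.5% in T1, 82.1% in T3, 84.5% in CK1 and 83.1% in CK3, and the intervals of these shares overlapped. Among single sequences it ranked 14th of 319 in T1, 16th in T3, 17th in CK1 and 16th in CK3. Over the 148 sequences with a mean of at least 10 normalized reads, its range of 0.29 log2 units was the fifth smallest as deposited, and the median range was 1.103. With equal totals its range was 0.53 and 18 sequences spanned less; with median-of-ratios scaling it was 0.37 and 9 spanned less. In the fed against unfed comparison its difference was 0.15 ± 0.31 (SE), with a limma adjusted p of 0.96 over 154 sequences.

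Among the forms shared with other plants, zma-miR396a-5p had 67.4 normalized reads in T1 and 54.6 in T3, against 48.6 in CK1 and 65.2 in CK3. T1 and CK3 stood close together at the top and CK1 was lowest, so fed and unfed values were interleaved. Its log2 ratio was 0.46 for T1 over CK1 (0.066 to 0.89) and -0.25 for T3 over CK3 (-0.66 to 0.15). The fed minus unfed difference was 0.11 ± 0.46 (SE, limma adjusted p = 0.97).

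Its relative with the other 3′ base, zma-miR396e-5p, had 45.6 normalized reads in T1 and 55.6 in T3, against 44.2 in CK1 and 18.2 in CK3. CK3 alone stood low, and the other 3 libraries lay within 44.2 to 55.6. T3 was thus higher than CK3 by the 2-fold rule, with a log2 ratio of 1.56 (0.97 to 2.33), while T1 over CK1 was at 0.044 (-0.40 to 0.50). The rule also called CK3 lower than CK1, with a log2 ratio of -1.24 (-2.06 to -0.55), and T3 over CK1 was at 0.33 (-0.10 to 0.79). In T1 the values of zma-miR396a-5p and zma-miR396e-5p came to 222.5 and 150.5 implied reads, fractions that add up to a whole number. These were the only 2 of the 21 miR396 values above 0 that were not whole.

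The same 5p strand with a further 3′ base, aly-miR396b-5p_R+1, had 11.6 normalized reads (14 implied reads) in CK3 and was listed at 0 in T1, T3 and CK1. A listing at 0 still allows a level under that of 5 reads, which was 1.51 normalized reads in T1, 1.76 in T3 and 3.68 in CK1. In CK3 this longer form was 38.9% (23.1% to 56.5%) of itself and zma-miR396e-5p together. Summed, the 2 forms were at 45.6 in T1 and 55.6 in T3, against 44.2 in CK1 and 29.7 in CK3. With the sum, T3 over CK3 fell short of 2-fold at 0.88 (0.37 to 1.47), and CK3 over CK1 was at -0.56 (-1.21 to 0.049). The sum was formed after the values were seen. All 5p strands other than zma-miR396c_L-1 together stood at 113 in T1 and 110 in T3, against 92.7 in CK1 and 94.96 in CK3. This second sum was not planned either, and it leaves out the entry that held 82.1% (T3) to 84.5% (CK1) of the 5p reads. Here both fed libraries were above both unfed ones, by amounts whose counting intervals, as deposited, reached 0 (T1 over CK1 0.28, -0.011 to 0.59, and T3 over CK3 0.21, -0.10 to 0.54). With equal totals the values were 119 in T1 and 115 in T3, against 96.3 in CK1 and 84.2 in CK3. With median-of-ratios scaling they were 116 in T1 and 108 in T3, against 97.7 in CK1 and 91.9 in CK3.

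The 3p strands followed different profiles. The entry zma-miR396a-3p had 41.8 normalized reads in T1 and 29.2 in T3, against 20.6 in CK1 and 28.1 in CK3. It is set beside zma-miR396a-5p by name only, since hairpins were not examined. T1 was highest and CK1 lowest, and T3 and CK3 were alike. T1 over CK1 had a log2 ratio of 0.99 (0.43 to 1.66), just short of the rule on this scale though the plain ratio was 2.03, and T3 over CK3 was at 0.056 (-0.53 to 0.68). Of the reads of zma-miR396a-5p and zma-miR396a-3p together, the 5p strand held 61.7% in T1 and 65.1% in T3, against 70.2% in CK1 and 69.9% in CK3, with overlapping intervals.

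The entry zma-miR396f-3p had 32.7 normalized reads in T1 and 27.5 in T3, against 66.2 in CK1 and 9.91 in CK3. The unfed libraries lay at the 2 ends and both fed libraries between them. The log2 ratio was -0.996 for T1 over CK1 (-1.44 to -0.60), again just short of the rule, and 1.38 for T3 over CK3 (0.58 to 2.48), past the rule. With the controls exchanged, the ratio was 1.63 for T1 over CK3 and -1.24 for T3 over CK1, both past the rule. T3 over T1 was at -0.24 (-0.69 to 0.18), while CK3 over CK1 was at -2.62 (-3.75 to -1.87), the largest ratio between 2 listed values of a miR396 entry among the pairs compared. All 4 values of this entry came to even numbers of implied reads (108, 78, 90 and 12). For 23 of 41 predicted entries the implied reads were 2 times the number in the name. They were equal to that number for 6 and at another ratio for 12. If each read of zma-miR396f-3p was counted 2 times, the interval for T3 over CK3 widens to 0.22 to 3.002 and that for CK3 over CK1 to -4.26 to -1.51. Fed minus unfed, its difference was 0.19 ± 0.97 (SE, limma adjusted p = 0.97).

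**Figure D2:**
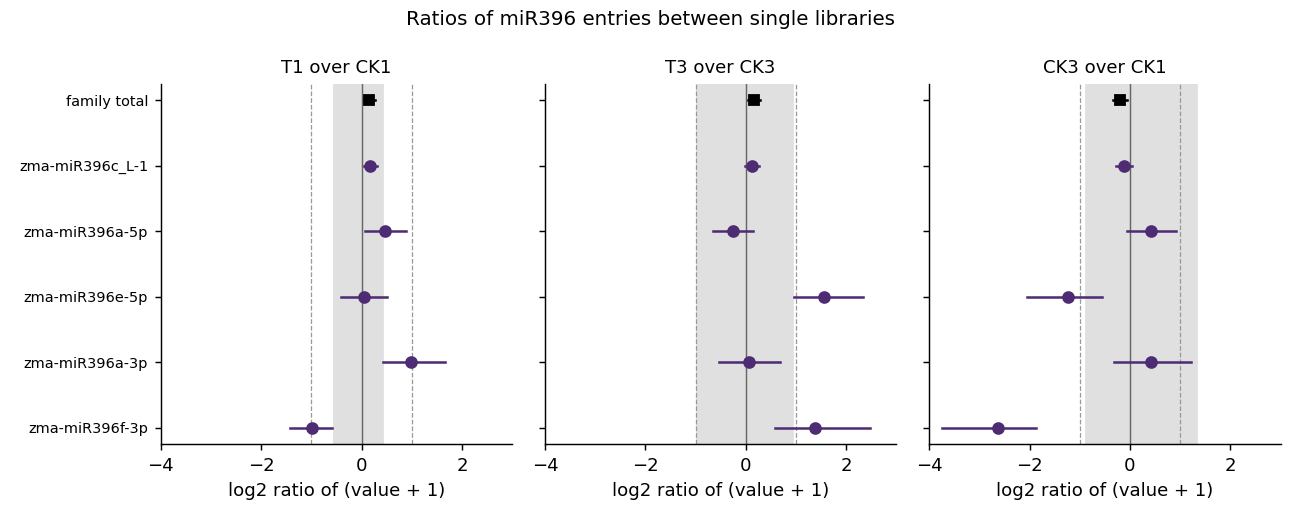
Log2 ratios (of values plus 1) of the miR396 total (squares) and of its entries (circles) for T1 over CK1, T3 over CK3 and CK3 over CK1; bars are 95% exact counting intervals of the plain ratio, the grey band spans the quartiles of all compared sequences, and dashed lines mark 2-fold. The total lies at 0.15, 0.17 and -0.19, while zma-miR396f-3p moves between -0.996, 1.38 and -2.62.

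Where a library of the pair reached 10 normalized reads, 0 of 5 miR396 entries passed the 2-fold rule for T1 against CK1, where 26.1% of all 165 sequences did. For T3 against CK3, 2 of 6 were higher and 1 was lower, against 24.9% higher and 23.2% lower among all 185 sequences. In all, 50% of the entries and 48.1% of all sequences were called in that pair. For CK3 against CK1, 1 of 6 was higher and 2 were lower, against 28.9% and 22.5% of 187. For T1 against CK3, 2 of 6 were higher and 1 lower, with backgrounds of 16.3% and 25.8%, and for T3 against CK1 1 of 5 was lower, with a background of 7.51%. T3 against T1 had 0 of 5, with 17.6% of all sequences called. Each call among the pairs with CK3 concerned zma-miR396e-5p, its longer form or zma-miR396f-3p. The median log2 ratio of the members was 0.18 for T1 over CK1 and 0.086 for T3 over CK3, beside -0.12 and 0.015 for all sequences compared. In the limma fit, 5 of the 6 entries passed the minimum of 10 normalized reads in at least 2 libraries, and none of these was called; aly-miR396b-5p_R+1 was not tested. The remaining 2 adjusted p-values by limma were 0.83 for zma-miR396e-5p, with a difference of 0.80 ± 0.61 (SE; 0.19 without CK3, 1.42 without CK1), and 0.86 for zma-miR396a-3p, with 0.52 ± 0.52. The fit called 0% of 154 sequences, and 3.9% had an unadjusted p under 0.05.

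The 5p arm held most of the family in every library. Its total was 685 normalized reads in T1 and 617 in T3, against 598 in CK1 and 562 in CK3. The 3p total was 74.5 in T1 and 56.7 in T3, against 86.8 in CK1 and 38.0 in CK3. The 5p totals of the fed libraries were the higher ones as deposited, but T3 over CK1, at 0.044 (-0.077 to 0.17), did not differ beyond counting error, and with median-of-ratios scaling T3 stood at 604 and CK1 at 630. The 3p totals of the fed libraries lay between the unfed ones. As a share of the family, the 5p arm was 90.2% in T1 (89.0% to 91.3%) and 91.6% in T3 (90.2% to 92.8%), against 87.3% in CK1 (85.02% to 89.4%) and 93.7% in CK3 (91.7% to 95.3%). The intervals of CK1 and CK3 did not overlap with each other, and the fed libraries lay between them. With the reads of zma-miR396f-3p halved, the shares were 92.2% in T1 and 93.5% in T3, against 91.8% in CK1 (89.8% to 93.5%) and 94.5% in CK3 (92.5% to 96.0%), and those intervals overlapped. Fed minus unfed, the 5p total differed by 0.16 ± 0.23 (SE, limma adjusted p = 0.90) and the 3p total by 0.17 ± 0.56 (limma adjusted p = 0.94).

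Within the 3p arm the balance of the 2 entries turned over between the unfed libraries. The entry zma-miR396f-3p was 43.9% of the 3p reads in T1 (37.6% to 50.3%) and 48.4% in T3 (40.5% to 56.4%), against 76.3% in CK1 (67.6% to 83.6%) and 26.1% in CK3 (14.3% to 41.1%). CK1 thus stood above the 3 other libraries and the interval of CK3 reached those of T1 and T3. With the reads of this entry halved the shares were 28.1% in T1, 32.0% in T3, 61.6% in CK1 and 15% in CK3, in the same order. On the 5p side, zma-miR396e-5p was 40.3% of itself and zma-miR396a-5p in T1, 50.5% in T3, 47.6% in CK1 and 21.8% in CK3 (14.2% to 31.1%). With its longer form counted in, T1 stayed at 40.3% (35.2% to 45.4%) and CK3 stood at 31.3% (23.0% to 40.6%), and these intervals overlapped.

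**Figure D3:**
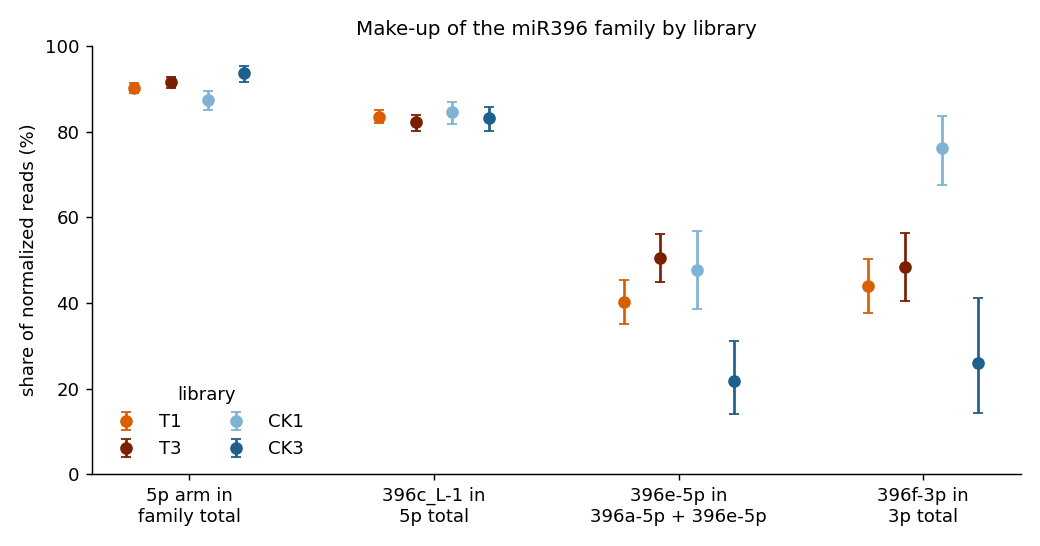
Shares of normalized reads (%) within the miR396 family in T1, T3, CK1 and CK3, with 95% exact binomial intervals on implied reads. The 5p arm stays between 87.3% and 93.7% and zma-miR396c_L-1 between 82.1% and 84.5% of the 5p total, whereas zma-miR396f-3p is 76.3% of the 3p total in CK1 and 26.1% in CK3.

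Beside miR396, 12 other families that act on leaf growth and development were listed. They include miR319, which targets TCP factors and is known in Arabidopsis to act upstream of miR396 through them, miR164, which targets NAC factors, miR166, which targets HD-ZIP III factors, and miR156, which targets SPL factors. For T1 against CK1 none of the 12 was called and their median log2 ratio was -0.16, where the rule called 19.6% of all families and the median was 0.074. For T3 against CK3, 5 of 12 were higher and none lower (median 0.37), where 31.9% of all families were higher and 12.8% lower and the median was 0.37. The 5 were miR160, miR164, miR166, miR319 and miR172, the last listed at 0 in CK3. MiR396, like the 7 other families of the list, was not called. Its log2 ratio of 0.17 lay above those of miR390 at -0.096, miR167 at -0.27 and miR529 at -0.90, and below those of miR319 at 2.02 (11.4 normalized reads in T3 and 2.06 in CK3, under the level of 5 reads), miR160 at 1.21, miR164 at 1.06 and miR166 at 1.02, and close to that of miR156 at 0.21. With CK1 as the control none of the 12 was called in T3, where 25.5% of all families were. In the limma fit over all 4 libraries none of the 12 was called, and the smallest adjusted p among them was 0.60.

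**Figure D4:**
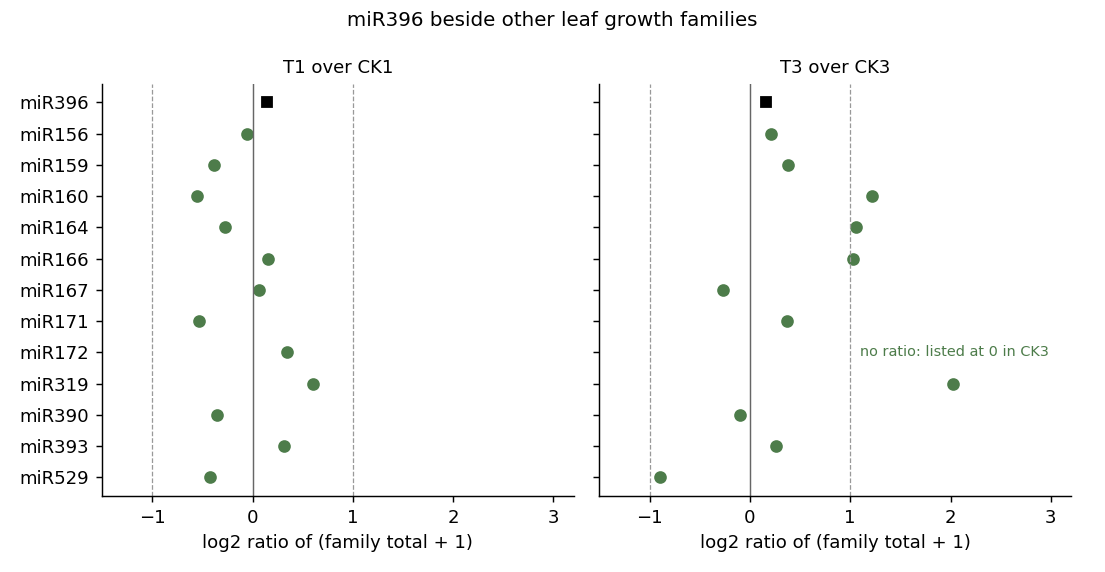
Log2 ratios (of family totals plus 1) of miR396 (squares) and 12 other leaf growth families (circles) for T1 over CK1 and T3 over CK3, single libraries without error; dashed lines mark 2-fold, and miR172, listed at 0 in CK3, has no ratio there. MiR396 stays at 0.15 and 0.17 while miR160, miR164, miR166 and miR319 pass 2-fold over CK3.

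Of the 40 other families with a mean of at least 10 normalized reads, the 3 whose profile over the 4 libraries lay nearest to that of miR396 were miR393, miR156 and miR168. The measure was the Euclidean distance between log2 profiles centred on their means, 0.14, 0.21 and 0.28 for these families. MiR393, which targets auxin receptor mRNAs, had 165 normalized reads in T1 and 146 in T3, against 133 in CK1 and 121 in CK3. MiR156 had 1404 in T1 and 1509 in T3, against 1458 in CK1 and 1301 in CK3. MiR168, which targets the mRNA of the Argonaute protein AGO1, had 4912 in T1 and 5468 in T3, against 5501 in CK1 and 4186 in CK3. These families were chosen for their likeness to miR396, CK3 was the lowest library in 19 of the 40 families, and 4 points per profile carry no test.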

How the data were processed

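Small RNA libraries were made with the TruSeq Small RNA kit from Trizol-extracted total RNA and sequenced on an Illumina HiSeq, per the labels' protocols. The protocol mentions further libraries beside the 4 analysed here, so a column may or may not pool several. The authors deposited a normalized signal value for each sequence and library, per the file headers. Which scaling, aligner, caller and build they used is not given in the sources used here. The members and lists were chosen with earlier results of these data known.

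Rows of equal sequence, whose values were equal, were taken once, with a maize name preferred. A design foreseen for counts was replaced by its plan for normalized values. Ratios are differences of log2(value + 1). A 2-fold ratio was called when the higher library reached 10 normalized reads. Fed against unfed used limma 3.58.1 in R 4.3.3 (trended prior, entries with at least 10 in at least 2 libraries, Benjamini-Hochberg, adjusted p under 0.05). The code was run on simulated counts with a fixed spread, not that of these libraries. That run does not show how the fit performs on data like these. The value of 1 read was the largest step that gave whole numbers for 85% or more of the low values. Some values stayed fractional, so count models were not applied. Every miR396 entry is described. The other families named are the list, the 3 nearest profiles and neighbours in level, which were chosen after their values were seen. Alternatives were pseudocounts of 0.5 and 5, no minimum, equal totals, median-of-ratios scaling, other controls, merged or maize-named entries, a block, an untrended prior and leaving out each library.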

Additional observations from a re-analysis of the deposited data

Results flagged for a closer look

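The ratios of zma-miR396f-3p had opposite signs at the 2 feeding times, with a log2 ratio of -0.996 for T1 over CK1 and 1.38 for T3 over CK3, both with counting intervals off 0. The difference between these ratios was not tested, since each rests on 1 library per group. The fed values, 32.7 normalized reads in T1 and 27.5 in T3, lay between the unfed ones, 66.2 in CK1 and 9.91 in CK3.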

How the results depend on the processing

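The miR396 total kept its direction for fed against unfed and was never called, at 0.16 with the replicate block (title number) and from 0.061 to 0.25 when each library was left out. The title numbers are not stated to mark a shared day or plant. Deviations from the fed or unfed mean correlated between same-numbered libraries across 154 sequences (r = 0.31). With 2 fed and 2 unfed libraries, both pairs give the same value by construction, so it cannot show whether the numbers mark pairs. The block called no sequence and no family. Leaving out a library leaves 1 sample on a side, assumed to vary like the others. For all sequences the number called was 2 with an untrended prior and 0 to 4 with a library left out (4 without CK3). The other unfed library as control gave family ratios of 0.34 for T1 and -0.025 for T3. Equal totals rest on sums of which miR9774 is the largest part, and its level was highest in CK3. They moved the median of all sequences to 0.31 for T3 over CK3, 0.22 for T1 over CK3 and -0.059 for CK3 over CK1. As deposited these medians were 0.015, -0.043 and 0.22. The family ratios with equal totals were 0.40 for T3 over CK3, 0.58 for T1 over CK3 and -0.42 for CK3 over CK1. As deposited, the family ratios of these pairs were 0.17, 0.34 and -0.19. Without zma-miR396c_L-1 the as-deposited ratios lay farther from 0, at 0.33, 0.49 and -0.43 in the same order. The members called for T1 against CK1 were 2 at a pseudocount of 0.5, 1 with equal totals, 1 with median-of-ratios scaling and 3 against CK3. For T3 they were 1 against CK1 and 0 against the mean of both unfed libraries. With zma-miR396e-5p and its longer form summed, 1 was called for T3 against CK3, 1 for T1 against CK3 and 1 for CK3 against CK1. The T3 ratio of zma-miR396f-3p reversed to -1.24 over CK1 and -0.46 over that mean. Leaving out libraries moved its fed minus unfed difference between -1.12 (without CK3) and 1.51 (without CK1), that of the 3p total between -0.41 (without CK3) and 0.76 (without CK1), with -0.021 without T1, and that of zma-miR396a-5p between -0.10 (without CK1) and 0.31 (without CK3), with -0.044 without T1. That of zma-miR396e-5p lay between 0.19 (without CK3) and 1.42 (without CK1) and was 0.46 with its longer form summed. The cause of these changes was not tested. Depth limits entries near 5 reads, most in CK1 and CK3.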
